A study of Mus musculus with 2 samples.

Results

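Among the type 2 conventional dendritic cells (cDC2s) of lymph nodes from unimmunized mice, 7 clusters carry a deposited label based on mRNA, and the second of them held 432 of the 2024 labelled cells, or 21.3%. Its members were taken by that deposited label, and the other 1592 labelled naive cells served as the comparison. The naive library held 3471 cells with expression values, of which only cDC2s carry an mRNA cluster label, and both libraries together held 11067.

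Transcripts and 12 surface proteins were measured in the same cells (CITEseq), with 1 library per condition from B6 (C57BL/6N) mice. The naive library came from unimmunized animals, and the papain library from animals given ovalbumin (OVA) with the protease allergen papain in both rear footpads 1 day earlier. According to the methods, popliteal nodes were taken after papain and skin-draining nodes were pooled for the naive library, whereas the protocol in the labels names popliteal nodes for both and the tissue field a skin-draining node. All cells were sorted as MHCII-high, CD11c+ and B220-, so a level of MHCII or CD11c is set in part by the gate. Since each condition is a single library, no p-value or standard error is given. The 95% intervals cover counting error only, not the spread between mice.

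Dendritic cells take up antigen in the skin and, on maturing, carry it along lymphatics to the draining node with the help of the chemokine receptor CCR7. There they present peptides on MHC class II and display costimulatory ligands to T cells. Conventional DCs fall into cDC1s, marked by XCR1, and cDC2s, marked by CD172a (SIRPa), and a part of the skin-derived cDC2s carries the lectin CD301b, the product of *Mgl2*, and is known for inducing type 2 helper T cells.

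Surface proteins were read through 15-base DNA tags on the antibodies, which were sequenced and counted with the mRNA. The tags of the proteins on which the description of the cluster turns are shown as listed with the data, and all 15 bases, in capitals, are the part that was counted:
CD301b (MGL2): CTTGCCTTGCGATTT
CD8a: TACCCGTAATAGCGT
CD11c: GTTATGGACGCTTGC
CD172a (SIRPa): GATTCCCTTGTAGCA
CD11b: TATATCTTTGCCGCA
CD24: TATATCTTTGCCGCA
CD11b and CD24 are listed with the same 15 bases although their deposited values differ (medians of 0.516 and 0.427 in the cluster), so these 2 proteins are not described further.

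The cluster was one of middle depth and even make-up. Its cells had a median of 14059 UMIs (unique molecular identifiers, each counting 1 captured transcript; range 7702 to 24624), against 14252 in the other labelled cells. They had a median of 2996 detected genes, with 4.08% of UMIs on mitochondrial genes against 3.85% elsewhere. Cluster 4 had a median of 13210 UMIs and cluster 3 of 9893, clusters 1, 5 and 7 lay between 18801 and 20541, and cluster 6 was at 5929. No barcode occurred more than once within a library, and 2 barcodes occurred in both.

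The antibodies and the mRNA were each set beside the label cDC2. The paper identified cDC2s by CD172a, cDC1s by XCR1 and Langerhans cells by CD326. The values of these antibodies therefore describe the cluster and do not test the label. The median antibody value of the cluster was 1.60 for CD172a, 0.137 for XCR1, 0.362 for CD326, which marks Langerhans cells, and 0.0448 for CD64, which marks macrophages. For CD172a the other labelled cells had a median of 1.70. Each value is the natural log of 1 plus the ratio of an antibody's count to the geometric mean of all 12 in that cell, so it is relative within a cell. MHC II tags were a median of 94.0% of the antibody counts of a cell in the cluster. Of the 17 cDC2 genes, 16 were listed and 7 reached 50 CPM (UMIs of a gene per 1000000 UMIs, summed over the cells of a group). None of these 7 was above the other clusters, with a median log2 ratio of -1.01, or -0.56 without cluster 5. The lectin *Cd209a* had 2 UMIs in the whole cluster, *Mgl2* 4 and *Clec10a* 0. These lectin genes were nearly unseen in clusters 1, 3 and 4 too, where *Mgl2* lay between 0.53 and 1.88 CPM.

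Markers of T, B and NK cells and of monocytes and macrophages were scarce, while the cDC1 and plasmacytoid DC lists were not. The 11 listed cDC1 genes summed to 412 CPM, within the 349 to 584 CPM of the other clusters, led by *Batf3* (226 CPM) and *Irf8* (168 CPM). The 5 plasmacytoid DC genes summed to 276 CPM, within 177 to 372 CPM, led by *Tcf4* (165 CPM) and *Bst2* (108 CPM). The 7 T cell genes summed to 4.18 CPM in the cluster and to between 6.96 and 983 CPM in the other 6 clusters, and the 5 NK cell genes to 0.321 CPM, with 3 of the 5 at 0 UMIs. The 7 B cell genes summed to 30.8 CPM, inside the range of the others (15.1 to 600 CPM), and none was at 0. The 14 listed monocyte and macrophage genes summed to 34.4 CPM against 62.1 to 4775 CPM, with *Fcgr1*, *Ly6c2* and *Ccr2* at 0. Of the 432 cells, 10 held a *Cd3e* or *Trac* UMI (2.31%, exact interval 1.12 to 4.22), and of the 50 cells of cluster 7, 28 did.

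By the deposited antibody values, which are relative within a cell, the cluster combined the highest CD8a of the 7 clusters with the lowest CD11c. Antibody values had no part in the mRNA clustering, although they served to choose the cDC2s and to place them in CD301b classes. The median CD8a value was 0.979 (quartiles 0.456 and 1.70), above all 6 other clusters, whose medians were 0.316 to 0.822. Cluster 7, where 56.0% of the cells held a T cell transcript, came next, and cluster 3 followed at 0.67. The quartile ranges of cluster 2 overlapped those of each of them. In antibody counts, which are not scaled within a cell, the order at the top was another: cluster 7 had a median of 66.5 CD8a tags per cell, cluster 2 48 and the other cells together 16. As a share of a cell's antibody counts, the medians were 1.23%, 0.501% and 0.210%.

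CD11c, the integrin that defines DCs and that the sort required, had a median of 1.36 (quartiles 0.989 and 1.85), the lowest of 7 and close to 1.43 in cluster 3 and 1.45 in cluster 7. Clusters 1, 4, 5 and 6 lay between 2.43 and 3.65, and their lower quartiles, between 1.93 and 3.18, were above the upper quartile of cluster 2. In counts, cluster 3 had the lowest median of CD11c tags, 67 per cell against 74 in cluster 2. MHC II stood at 5.73, below cluster 3 alone. The plot of antibody values by cluster shows these orders.

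**Figure D1:**
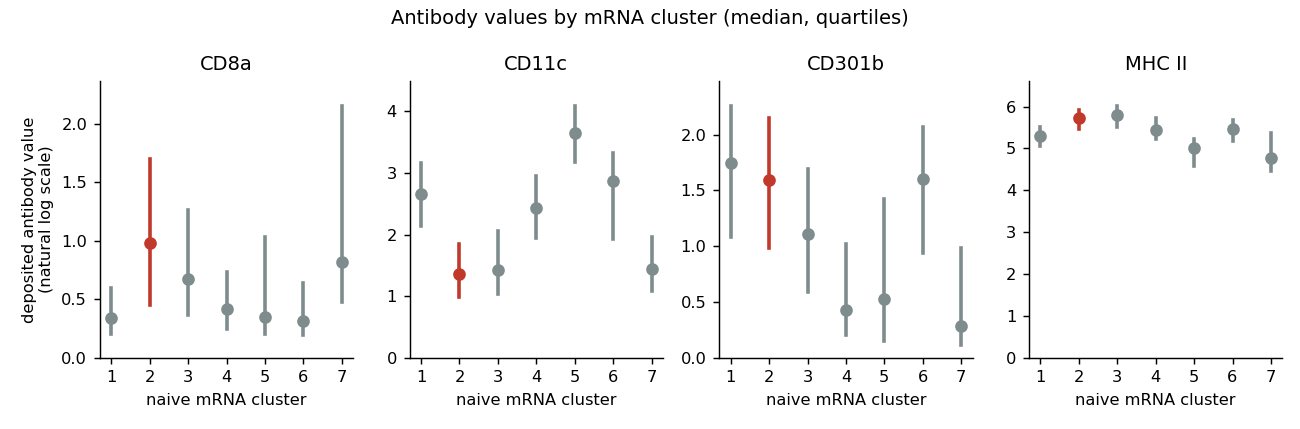
Deposited antibody values (natural log scale, vertical axes from 0) for CD8a, CD11c, CD301b and MHC II in the 7 naive mRNA clusters (horizontal axes), with points for medians and bars for quartiles over cells, cluster 2 in red. Cluster 2 has the highest median for CD8a (0.979) and the lowest for CD11c (1.36).

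CD301b was high in much of the cluster. By the deposited antibody classes, 206 cells were CD301b-high (47.7%, exact interval 42.9 to 52.5), 144 intermediate (33.3%) and 82 low (19.0%). The share of CD301b-high cells was 31.5% (29.2 to 33.8) in the other labelled cells together. It was 53.4% in cluster 1 and 47.3% in cluster 6, both with intervals that overlap that of cluster 2, and at most 26.4% in clusters 3, 4, 5 and 7, whose intervals do not. The CD8a and CD11c pattern was seen in each class. Among CD301b-high cells the median CD8a value was 0.78 in the cluster and 0.32 elsewhere, among intermediate cells 1.16 and 0.46, and among low cells 1.50 and 0.59. The median CD11c value was 1.35 against 2.66 in CD301b-high cells, 1.28 against 2.24 in intermediate and 1.63 against 2.45 in low cells.

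The mRNA of these proteins was set beside the antibody values of the same clusters. *Itgax*, which encodes CD11c, was at 11.2 CPM in the cluster, the lowest of 7, with 12.2 CPM in cluster 3 and 325 CPM in cluster 5. *Mgl2* was found in 4 of the 432 cells (0.926%, exact interval 0.253 to 2.35) although 206 of them were CD301b-high. In cluster 5, where 39 of 246 cells were CD301b-high, it reached 276 CPM and was found in 43.1% of cells. The level of *Mgl2* mRNA therefore did not follow that of its protein across the clusters.

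*Cd8a*, which encodes the CD8 alpha chain that some DCs carry without the beta chain, was at 80.0 CPM (exact Poisson interval 73.1 to 87.4) in the cluster and 32.4 CPM elsewhere. Cluster 5 was at 82.1 CPM, inside the interval of cluster 2. Then came cluster 7 with 70.5 CPM, cluster 3 with 26.2, cluster 1 with 19.8, cluster 6 with 15.1 and cluster 4 with 2.67. Across clusters the pooled mRNA level followed the median antibody value only in part. Clusters 2, 7 and 3 had the highest antibody medians (0.979, 0.822 and 0.671) and the same order by mRNA. The median was 0.416 in cluster 4, which had the least mRNA, and 0.353 in cluster 5, which had the most. The upper ends of clusters 5 and 2 were closer, with 90th percentiles of the antibody value of 2.38 in cluster 5 and 2.46 in cluster 2. A *Cd8a* UMI was held by 52 of the 246 cells of cluster 5. The beta chain gene *Cd8b1* was at 1.77 CPM in cluster 2 and 83.7 CPM in cluster 7. Without the cells that held a *Cd3e* or *Trac* UMI, *Cd8a* stayed at 79.1 CPM in cluster 2.

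A *Cd8a* UMI was found in 139 of the 432 cells (32.2%, exact interval 27.8 to 36.8, median depth 14059 UMIs), against 10 of 440 Langerhans cells (2.27%, 10768 UMIs), which should lack the gene, and 43 of 578 cDC1s (7.44%, 15807 UMIs). With every cell thinned to 8355 UMIs (the 10th percentile of depth), which dropped 1 cell of cluster 2 and 202 others, the shares were 25.9% in the cluster and 9.91% in the other labelled cells. Of the 202, 123 were from cluster 3 and 51 from cluster 6, which has 55 cells. The comparison group of every thinned share is changed in this way. Within the cluster, cells with a higher CD8a value more often held the transcript. From the lowest to the highest quintile of the CD8a antibody value within the cluster, a *Cd8a* UMI was found in 4.60%, 9.30%, 25.6%, 45.3% and 75.9% of cells. Their median depth stayed between 13679 and 14190 UMIs, while the median CD301b value was 1.96 in the lowest quintile and 1.02 in the highest.

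**Figure D2:**
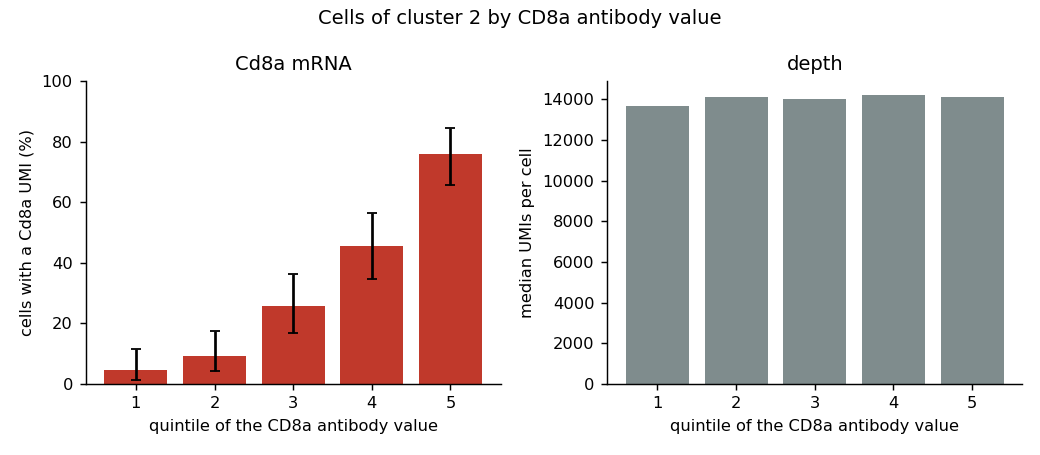
Cells of cluster 2 in quintiles of the CD8a antibody value (horizontal axes), with the percentage holding a Cd8a UMI and exact 95% binomial intervals on the left and the median UMIs per cell on the right. The share runs from 4.60% to 75.9%, at nearly the same depth.

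Turning to the genes that set the cluster apart, 31 genes were at least 2-fold higher and 94 at least 2-fold lower than in the other labelled naive cells. They are 1.18% and 3.58% of the 2626 genes that reached 50 CPM on the side where they were higher. Since the clusters were made from the mRNA of these same cells, all ratios describe the cluster and test nothing. Scaled to the median ratio of genes with 10 CPM or more, which was -0.15 on the log2 scale, the counts were 54 and 55. Cluster 2 was the highest of the 7 clusters for 28 of the 31 genes, and cluster 5 for 62 of the 94 that were lower. Without cluster 5, a comparison chosen after seeing the data, 20 genes (0.78% of 2563) were higher and 43 (1.68%) lower.

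*Khdc1a* stood out most. Its level was 151 CPM (exact Poisson interval 142 to 161) in cluster 2, 62.6 in cluster 3 and between 3.48 and 33.1 in the other 5. The log2 ratio to the other cells was 2.92 (exact interval 2.76 to 3.08). A UMI was found in 38.9% of the cells of the cluster and 9.30% elsewhere, or 33.2% and 6.79% after thinning. The gene lies on chromosome 1 (21349677 to 21352199, GRCm38), and its relative *Khdc1c*, to which reads could be shared, was at 6.43 CPM against 0.97. *2610528A11Rik* (388 against 103 CPM, log2 ratio 1.91), *Sned1*, which encodes an extracellular matrix protein (75.7 against 21.8 CPM, log2 ratio 1.80), and *Snrnp25*, of the minor spliceosome (192 against 68.3 CPM, log2 ratio 1.49), were nearest in cluster 3, at 256, 72.7 and 150 CPM. The interval of the *Sned1* ratio to the pooled cells (1.62 to 1.98) says nothing of cluster 3, where the level was almost that of cluster 2.

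Receptors and a ligand known from T cell contact and positioning were also among the 15 highest ratios. *Tnfrsf4*, which encodes the costimulatory receptor OX40 (chromosome 4, 156013595 to 156016613), was at 214 CPM in cluster 2 and 65.2 in the others (log2 ratio 1.71, interval 1.60 to 1.82). Cluster 3 followed with 123 CPM, and the remaining clusters had 21.5 to 90.9. *Jag1*, a Notch ligand (chromosome 2, 137081451 to 137116520), was at 201 against 64.9 CPM (log2 ratio 1.63, interval 1.52 to 1.73), and no other cluster exceeded 84.7. *Gpr183*, which encodes the oxysterol receptor EBI2 that places DCs and B cells within lymphoid tissue (chromosome 14, 121952331 to 121965193), was at 644 against 239 CPM (log2 ratio 1.43, interval 1.37 to 1.49), with 331 CPM in cluster 1. After thinning, *Tnfrsf4* was found in 66.8% of cells of the cluster against 28.8%, *Jag1* in 59.2% against 28.5% and *Gpr183* in 71.8% against 44.7%.

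The other genes of the 15 were *Atp2b4*, a plasma membrane calcium pump (log2 ratio 1.53), *Crispld2* (1.34), *Snn* (1.34), *Cd8a* (1.30, chromosome 6, 71373427 to 71379171), *Nlrc5*, the transactivator of MHC class I genes (1.26), *Nipal1* (1.19), *Gaa*, the lysosomal alpha-glucosidase (1.16), and *Gm37975* (1.15). *Nlrc5* was at 253 CPM in the cluster, 188 in cluster 3 and 50.2 to 133 in the rest. Past 2-fold but outside the 15 highest were 16 genes with log2 ratios of 1.01 to 1.13, among them *Il12b*, a subunit of IL-12 and IL-23 (214 against 106 CPM, 1.02), the phosphatase *Dusp14* (1.10), the tetraspanin *Cd63* (1204 against 580 CPM, 1.05) and the prion protein gene *Prnp* (1.03). These 4 were picked from the 16 after their values were seen. *Il12b* was at 154 CPM in cluster 1 (log2 ratio of cluster 2 to it 0.47). Without cluster 5, no gene of the cytokine list, to which it belongs, was past 2-fold higher.

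The 15 lowest ratios belonged to genes of other clusters. *Lyz2*, a lysozyme of macrophages and monocyte-related cells, was at 9.96 CPM in cluster 2, 3763 in cluster 5 and 24.6 to 147 elsewhere (log2 ratio -6.28, interval -6.67 to -5.92), and -2.02 without cluster 5. Cluster 5 also held the highest levels of *Cd209a*, *Mmp12*, *Mgl2*, *Lyz1*, *Lpl*, *Plaur*, *Wfdc17*, *Ccl4*, *Ccl6*, *Plbd1*, *Ccl3* and *Cd53*, between 203 and 563 CPM, against 0.32 to 4.66 CPM in cluster 2. *Mucl1* was highest in cluster 6 (221 CPM) and cluster 1 (109 CPM) and had 2 UMIs in cluster 2 (log2 ratio -7.39, interval -10.43 to -5.53). *Ly6e* was highest in cluster 7 (429 CPM against 2.57). *Ccr2*, the receptor with which monocytes and young DCs enter tissue, had 0 UMIs in cluster 2 and 47.0 CPM elsewhere, at least 97.5-fold lower when set against a floor of 3 UMIs over the cluster. That pooled level came mostly from cluster 5, at 219 CPM, and *Ccr2* was at 2.54 CPM in cluster 1 and 0.23 in cluster 3.

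**Figure D3:**
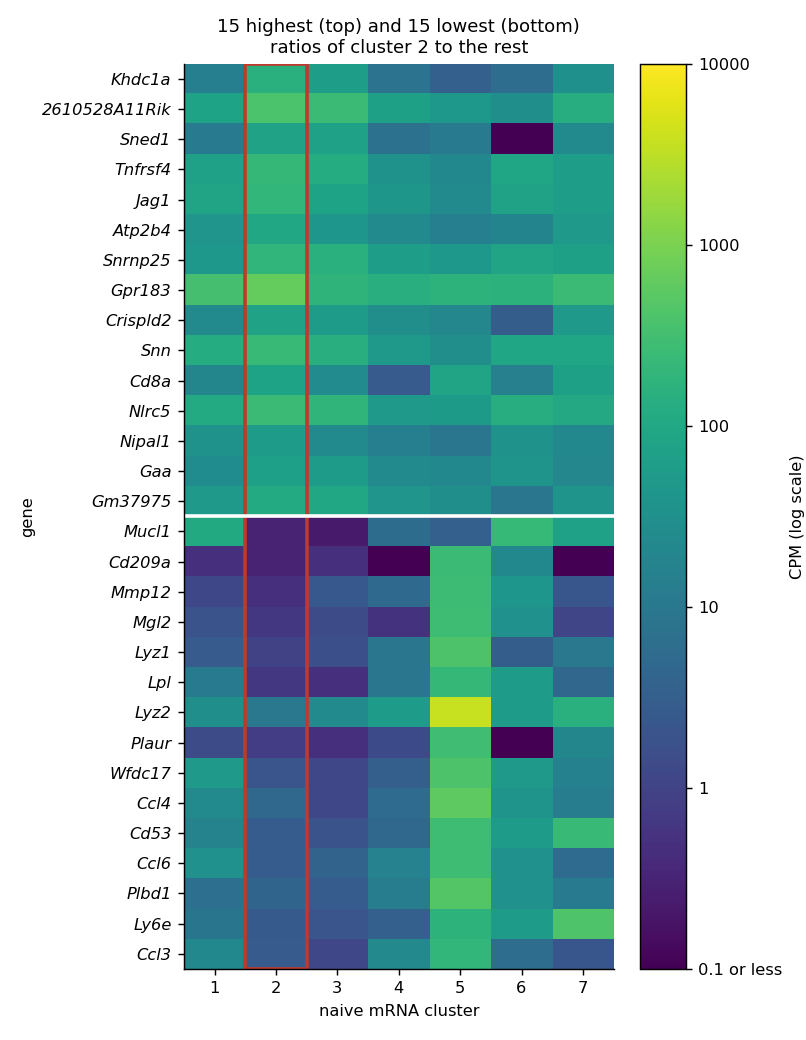
CPM (color, log scale) of the 15 highest and 15 lowest genes by ratio of cluster 2 to the other labelled naive cells (rows) in the 7 naive mRNA clusters (columns, cluster 2 framed). Khdc1a is at 151 CPM in cluster 2 and 62.6 in cluster 3, and Lyz2 at 3763 CPM in cluster 5 and 9.96 in cluster 2.

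Genes of DC maturation were mostly above the other cells without passing 2-fold. Of the 24 genes, 22 reached 50 CPM, 19 were above and 3 below, with a median log2 ratio of 0.43, or 0.27 without cluster 5. The 24 genes summed to 27575 CPM in cluster 2, 33595 in cluster 6 and 25758 in cluster 1. In clusters 3, 4, 5 and 7 they summed to between 8459 and 21290 CPM. Over all 2626 genes the median was -0.06, 43.1% were above 0 and cluster 2 was the highest of the 7 clusters for 276 (10.5%). Only *Tnfrsf4* was past 2-fold higher and only *Ccl17* past 2-fold lower, where 1.18% and 3.58% of all 2626 genes were. *Ccr7* was at 4856 against 3361 CPM (log2 ratio 0.53), *Cd83* at 2507 against 1659 (0.60), *Samsn1* at 2346 against 1453 (0.69), *Tmem123* at 4092 against 2476 (0.72) and *Fscn1*, the actin bundler of mature DCs, at 2426 against 1663 (0.54). *Cd86* differed by less than counting error (146 against 146 CPM).

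The ligands and receptors for T cells followed the same way. Of the 12 costimulatory and coinhibitory ligands, 11 were listed and 7 reached 50 CPM, with a median log2 ratio of 0.60. None was past 2-fold, where 1.18% of all 2626 genes were past 2-fold higher. *Cd274*, which encodes PD-L1, was at 289 against 150 CPM (0.94), *Icosl*, the ligand of ICOS, at 197 against 109 (0.85), and *Tnfsf9*, the ligand of 4-1BB, at 234 against 141 (0.73). Of the 12 TNF receptors, 7 reached 50 CPM (median 0.45), with *Tnfrsf4* past 2-fold, followed by *Tnfrsf18*, which encodes GITR (59.0 against 30.6 CPM, 0.95), *Tnfrsf9*, which encodes 4-1BB (99.6 against 55.9 CPM, 0.83), and *Cd40* (479 against 351 CPM, 0.45). The nearest clusters held more of some of these, with *Cd40* at 605 CPM in cluster 1 (log2 ratio of cluster 2 to it -0.34) and *Icosl* at 219 CPM in cluster 3 (-0.15). *Tnfrsf9* was at 88.8 CPM in cluster 3 (0.17, interval -0.02 to 0.35). *Fas* was below (63.6 against 87.9 CPM, -0.47). *Il2ra*, which encodes CD25, was at 88.2 against 51.4 CPM (0.78), with 77.1 CPM in cluster 3 (0.19, interval -0.006 to 0.40). *Il2* was at 4.18 against 3.76 CPM, a log2 ratio of 0.15 with an interval from -0.53 to 0.79.

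Of 15 genes for NF-kB subunits and inhibitors, 14 reached 50 CPM, 12 were above (median 0.43), none passed 2-fold, and cluster 2 was the highest of the 7 for 9 of them, against the 43.1% above 0 and the 10.5% highest in cluster 2 over all genes. *Rel* was at 1834 against 1379 CPM (0.41), *Nfkbia* at 4060 against 2948 (0.46), *Tnfaip3* at 1010 against 727 (0.47) and *Tnip1* at 142 against 92.7 (0.62), while *Nfkb1* was below (155 against 235 CPM, -0.60). All 8 of the 18 cholesterol synthesis and efflux genes that reached 50 CPM were above, with a median of 0.59, and cluster 2 was the highest of 7 for 6, beside the same shares over all genes. One of them was *Hmgcs1*, an enzyme of the pathway (146 against 91.8 CPM, 0.67).

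The genes of antigen presentation depended on the comparison. Of the 11 MHC class II presentation genes, 9 reached 50 CPM with a median log2 ratio of -0.93. Of these, 4 were past 2-fold lower, where 3.58% of all 2626 genes were. Cluster 5 held 9317 CPM of *H2-Ab1* against 1312 in cluster 2. Without cluster 5 the median of the same 9 was 0.68 and none was past 2-fold in either direction. *Cd74*, the invariant chain, was at 9871 CPM in cluster 2 and 22808 in cluster 5, and its ratio was 0.67 to cluster 1 and 0.89 to cluster 3. Among MHC class I genes, *H2-D1* was at 4307 against 2756 CPM (0.64, and 0.56 without cluster 5) and *H2-K1* at 4325 against 2954 (0.55 and 0.41), where reads of *H2-K1* could be shared with near-identical class I genes. In cluster 3 *H2-D1* was at 3570 CPM and *H2-K1* at 4118 (log2 ratios of cluster 2 to it 0.27 and 0.07). The median of the 10 class I genes at 50 CPM was 0.19, and 0.08 without cluster 5.

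Several groups were below, where 43.1% of all 2626 genes were above 0 and 3.58% were past 2-fold lower. Of the 12 chemokines, 10 reached 50 CPM with a median log2 ratio of -1.15, and 6 were past 2-fold lower. *Ccl5* was at 2741 against 6076 CPM (-1.15) and *Ccl17*, a ligand of CCR4, at 175 against 386 (-1.14), and without cluster 5 they were at -1.40 and -1.41. The 4 interferon-stimulated genes of 22 that reached 50 CPM were all below (median -0.59), with *Mx1* at 66.0 against 110.0 CPM (-0.74). All 7 of the 19 glycolysis and hypoxia genes that reached 50 CPM were below (median -0.60), 2 of them past 2-fold, *Ldha* (25.7 against 65.4 CPM, -1.35) and *Pfkp* (25.4 against 60.8 CPM, -1.26). Neither passed 2-fold without cluster 5, where they were at -0.93 and -0.60. Nuclear genes of the respiratory chain lay near the rest, with a median of -0.12, or 0.03 under median-ratio scaling.

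**Figure D4:**
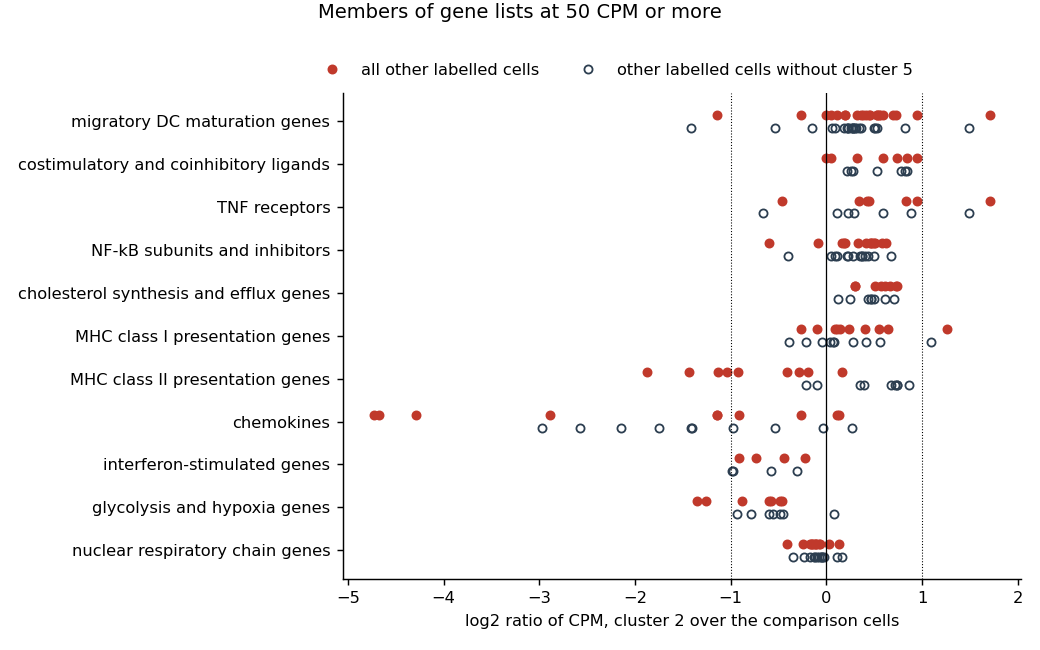
Log2 ratio of CPM in cluster 2 to all other labelled naive cells (filled points) and to those without cluster 5 (open points) for each member of 11 gene lists with at least 50 CPM, with dotted lines at 2-fold. The NF-kB and cholesterol genes lie mostly to the right of 0 in both, and the median of the MHC class II genes is -0.93 in one and 0.68 in the other.

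Transcriptomes of clusters 3 and 1 were the most like it, with Pearson correlations of 0.96 and 0.95 of log2 CPM plus 1 over 2542 and 2608 genes, followed by cluster 4 with 0.91. These correlations are across genes of 1 library, and genes are not independent replicates. Against cluster 3, 45 genes (1.77% of 2542) were at least 2-fold higher in cluster 2 and 22 (0.865%) lower. The highest ratios included the T cell ligand *Tnfsf9* (234 against 42.2 CPM, log2 ratio 2.47, interval 2.25 to 2.71), the cytokine subunits *Il12b* (214 against 41.7 CPM, 2.36) and *Ebi3* (54.2 against 11.7 CPM, 2.21), *Gpr183* (644 against 180 CPM, 1.83), *Cxcl2* (178 against 54.6 CPM, 1.70), the survival gene *Bcl2l1* (72.3 against 23.7 CPM, 1.61), *Cd8a* (1.61) and *Cd80* (64.0 against 22.5 CPM, 1.51). The lowest included *Ndrg3* (40.8 against 133 CPM, -1.71), the interferon-induced *Gbp4* (29.2 against 80.6 CPM, -1.46) and *Ccl5* (2741 against 6296 CPM, -1.20). Cells of cluster 3 were shallower and had a higher mitochondrial share, a median of 6.58% of UMIs against 4.08%, and the part of these differences in the ratios was not tested.

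Against cluster 1, the largest and richest in CD301b-high cells, 25 genes (0.959% of 2608) were at least 2-fold higher and 70 (2.68%) lower. *Khdc1a* (151 against 14.1 CPM, log2 ratio 3.42), *Sned1* (2.67), *2610528A11Rik* (2.29), *Snrnp25* (2.02) and *Cd8a* (80.0 against 19.8 CPM, 2.02) led, and *Tnfrsf18* (59.0 against 23.6 CPM, 1.32) joined *Tnfrsf4* (1.58). The lower genes were led by *Mucl1*, the fatty acid carrier *Fabp4* (1.77 against 50.9 CPM, -4.85), *Tnip3* (9.96 against 85.7 CPM, -3.10), the retinoic acid producing enzyme gene *Aldh1a2* (16.2 against 125 CPM, -2.95, interval -3.25 to -2.65), *Ccl9* (-2.83) and *Itgax* (-2.38). *Ccl17* was at 175 against 701 CPM (-2.00) and *Ccl22* at -1.08, while against cluster 3 these were at 1.00 and 1.18. Cluster 2 thus lay between clusters 1 and 3 for these chemokines, and above both for *Ccr7*, at 0.31 and 0.35.

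Within the cluster, the CD301b classes were compared with each other. The classes rest on antibody values and not on mRNA. Between the 206 high and the 144 intermediate cells, 1 of 2472 genes was at least 2-fold higher (0.0405%) and 3 lower (0.121%), so their levels were close for nearly all genes. These 4 were *Ptgs2*, the inducible prostaglandin synthase (234 against 104 CPM), and, lower in high cells, *Cbx5*, *Snrnp25* (132 against 267 CPM) and *Flrt3*. Between the high and the 82 low cells, 13 of 2541 genes were at least 2-fold higher (0.512%) and 29 lower (1.14%). *Egr1*, an immediate early gene, was at 294 CPM in high, 221 in intermediate and 114 in low cells (log2 ratio of high to low 1.37, interval 1.10 to 1.65), and the chemokine gene *Cxcl1* at 410, 278 and 197 CPM. In the other direction *H2-DMb2* was at 12.9, 28.4 and 80.7 CPM (-2.64, interval -3.23 to -2.08), *H2-DMa* at 48.7, 93.1 and 145 CPM (-1.57), *Cd200* at 50.4, 75.1 and 150 CPM (-1.57), *Cd80* at 46.4, 63.3 and 114 CPM (-1.29) and *2610528A11Rik* at 291, 318 and 791 CPM (-1.44). In all but *Ptgs2*, which was at 375 CPM in low cells, and *Cbx5* and *Snrnp25* the intermediate class lay between the others among the genes named here.

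*Cd8a* was at 55.0 CPM in CD301b-high, 101 in intermediate and 108 in low cells of the cluster (log2 ratio of high to low -0.98, interval -1.33 to -0.62). In the same order *Khdc1a* was at 151, 166 and 124 CPM, *Jag1* at 207, 213 and 158 and *Tnfrsf4* at 191, 230 and 244, all within 2-fold, while *2610528A11Rik* and *Snrnp25*, also among the 15 highest, passed 2-fold between a pair of classes as given above. *Mgl2* had 2 UMIs in the high cells and 0 in the low ones. The median depth was 14450 UMIs in high, 14066 in intermediate and 12766 in low cells.

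In the papain library, which was clustered separately into 9 clusters of 6190 labelled cells, the cluster most like it was papain cluster 2, with 1294 cells. Over 2759 genes, the log2 ratios of each cluster to the rest of its own library correlated with Pearson's r of 0.73, against 0.33 for papain cluster 7 and -0.58 to 0.06 for the other 7. Genes are not independent replicates, and papain cluster 2 was picked for this correlation, so the directions that follow are a description. All 15 of the highest and all 15 of the lowest genes of naive cluster 2 had the same direction in papain cluster 2. The lowest were also below 0 for all 15 in papain cluster 3 and for 14 in papain clusters 6 and 7. Of the 15 highest, 13 were above 0 in papain cluster 7, 6 in papain cluster 6 and 2 in papain cluster 3. Of the 31 genes past 2-fold higher, 29 were above 0 in papain cluster 2 and 4 past 2-fold. *Il12b* was below 0 there, with a log2 ratio of CPM plus 1 of -0.33. With the 50 CPM minimum applied in the papain library too, 26 of the 31 were tested and 3 of them past 2-fold higher, where 19 of all 2705 genes (0.702%) were. The 4 without that minimum were *Khdc1a* (231 against 45.3 CPM, log2 ratio 2.35), *Sned1* (36.4 against 6.91 CPM, 2.40), *Snn* (284 against 129 CPM, 1.14) and *2610528A11Rik* (162 against 79.3 CPM, 1.03). Of the 94 genes past 2-fold lower, 92 were below 0 there and 45 past 2-fold with no minimum there. With the minimum, 48 were tested and 14 were past 2-fold lower, where 39 of the 2705 genes (1.44%) were. For the counts by direction, and for those without the minimum, no share over all genes of the papain library is given here. Those counts are therefore a description only. In the naive library, 3954 of 18011 genes were past 2-fold lower with no minimum.

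**Figure D5:**
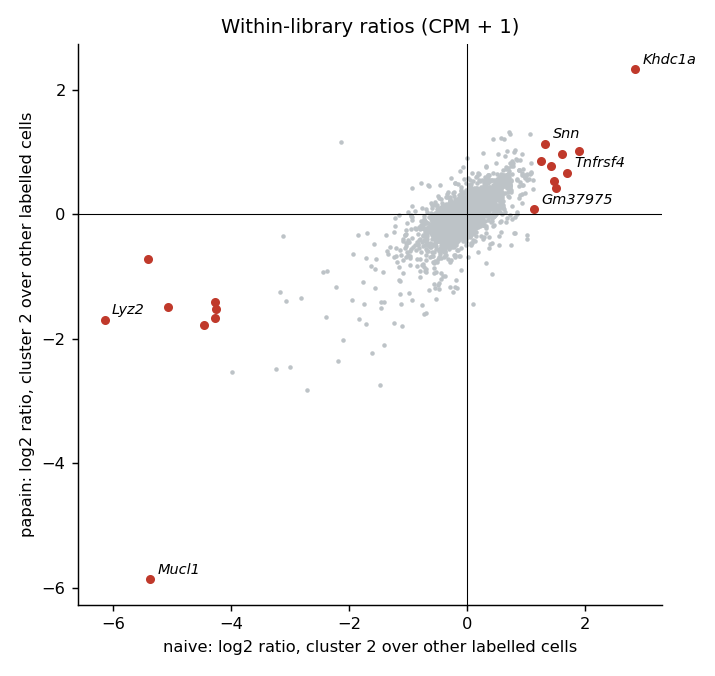
Log2 ratio of CPM plus 1 of cluster 2 to the other labelled cells in the naive library (horizontal axis) and of papain cluster 2 to the other labelled cells in the papain library (vertical axis) for 2759 genes, with 18 of the 30 genes of the highest and lowest naive ratios in red. Khdc1a is at the top right and Mucl1 at the bottom left, and Gm37975 lies near 0 on the vertical axis only.

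CD8a itself was highest in another papain cluster. In papain cluster 2 the median CD8a antibody value was 0.44 and *Cd8a* mRNA was at 14.7 CPM, with the lowest CD11c of the 9 clusters (1.48) and 67.2% CD301b-high cells (exact interval 64.5 to 69.7). In papain cluster 7, with 375 cells, the median CD8a value was 1.16, the highest of the 9, *Cd8a* was at 82.9 CPM, *Khdc1a* at 195 CPM and *Tnfrsf4* at 325 CPM, and 19.5% of cells were CD301b-high (15.6 to 23.8). The libraries differ in immunization and, by the methods, in lymph node site, which cannot be told apart.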

How the data were processed

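CITEseq data of 1 naive and 1 papain library were used. The authors ran Cell Ranger 3.0.1 and Partek on the mm10 genome, per the labels. Expression was deposited as log2 of CPM plus 1 for 18049 genes, and within each cell the values were whole multiples of 1 UMI (100% of values of up to 50 UMIs, within 0.02), from which UMIs were recovered. Antibody values were deposited on a natural log (ln) scale, relative to the geometric mean of the 12 antibodies of a cell. Antibody counts were recovered to within 0.0295 of a whole number using the deposited total counts. The authors also give counts of genes detected in each cell. The total of the expression data that the authors deposited is a score, a sum of log2 values, and their deposited mitochondrial percent is a share of that score, and neither was used.

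The naive library held 53095046 UMIs in all, with 3637 to 57378 per cell, and the papain library 122133401, with 2682 to 57150. Cells were grouped by the deposited mRNA cluster and CD301b class, and no cell was left out of a labelled cluster. Doublets were not called, and cells with a *Cd3e* or *Trac* UMI were left out in an alternative. For each group of cells, CPM was taken from the summed UMIs. Ratios carry exact intervals from the binomial split of the UMIs, shares exact Clopper-Pearson intervals and CPM exact Poisson intervals, all at 95% and for counting error only. Named were the 15 highest and 15 lowest ratios among genes that reached 50 CPM on the higher side, and members of 34 gene lists at that level. The cluster, the lists and the alternatives were chosen with earlier results of these data known. Gene positions are those of RefSeq for GRCm38.p6, the assembly of mm10, and 29 of the 30 highest and lowest genes matched. Python 3.11.15 with numpy 2.4.6, scipy 1.17.1, pandas 2.3.3 and matplotlib 3.10.9 was used, and the ratios were tested on simulated data. Some genes of the lists are not reported here by name.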

Additional observations from a re-analysis of the deposited data

How the results depend on the processing

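No paired analysis was possible because each condition is 1 library, with no replicate numbers in the labels. The counts of genes past 2-fold (31 higher, 94 lower) depended on the minimum level, the scaling and the comparison group. They were 76 and 491 with a minimum of 10 CPM and 639 and 3954 with none, 54 and 55 with scaling to the median ratio, and 20 and 43 without cluster 5, of which 17 and 35 were among the 31 and 94. A pseudocount of 10 CPM left 17 higher, the mean over cells of CPM 61 lower, and CD301b-low cells alone gave 72 higher. The other settings gave 22 to 42 higher and 67 to 140 lower. As a percentage of the antibody counts of a cell, the median of cluster 2 minus that of the other cells was 0.291 for CD8a, -3.77 for CD11c and 0.409 for CD301b, with the same directions as in the deposited values. None of the 30 named genes changed direction in the values obtained under 17 alternatives (255 for the highest 15 and 248 for the lowest 15, the remaining 7 having no finite ratio). The alternatives without cluster 5 and without clusters 6 and 7 were chosen after seeing the data. The pseudocounts, the other minimum levels and the median-ratio scaling could not reverse the direction of these genes. The values under those settings are therefore no check of direction. *Tnfrsf4* ranged from 0.50 to 1.89 and *Cd209a* from -7.39 to -0.55. With 1 library, the spread between mice could not be measured, and genes below about 50 CPM rest on few UMIs.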

Other observations

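Gene lists not described above were mostly near the other labelled cells or ran on few genes. Of 20 immediate early genes, 18 reached 50 CPM with a median log2 ratio of -0.05 (0.10 under median-ratio scaling and 0.23 without cluster 5), and within them *Nr4a3* (1405 against 917 CPM, 0.62) and *Dusp2* (759 against 382 CPM, 0.99) were highest of the 7 clusters in cluster 2, while *Jund* (206 against 438 CPM, -1.09) was lowest there. Of 13 cathepsin and lysosomal genes at 50 CPM, 6 were above and 7 below, with a median of -0.23 (-0.07 without cluster 5). The peptidase genes *Ctsc* (264 against 161 CPM, 0.71), *Ctsh* (885 against 583 CPM, 0.60) and *Lgmn* (149 against 93.3 CPM, 0.67) were above and the sphingolipid activator gene *Psap* (229 against 779 CPM, -1.76) below. Among 15 transcription factor and growth factor receptor genes, the DC receptor gene *Flt3* was at 219 against 151 CPM (0.54), the highest of the 7 clusters, and *Klf4* at 71.2 against 259 CPM (-1.87), the lowest. In the Bcl2 family, *Pmaip1*, which promotes cell death, was at 766 against 503 CPM (0.61), and *Mcl1*, which opposes it, at 880 against 719 CPM (0.29).

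The heat shock chaperones had a median of -0.26 over 10 genes, the regulatory DC genes -0.72 over 4 (*Aldh1a2* lowest at -2.25), the endocytic lectins and Fc receptors -2.42 over 5, the type 2 cytokine receptors and STATs 0.14 over 11, the cytokines -0.09 over 6 the chemokine receptors and adhesion genes 0.38 over 5, the Bcl2 family 0.20 over 7, the plasmacytoid DC genes 0.13 over 2, the SOCS family -0.03 over 2, the cDC1 genes -0.15 over 2 and the cell cycle genes -0.11 over 3. Under median-ratio scaling the medians of the cytokines (0.06), the SOCS family (0.12), the cDC1 genes (0.01) and the cell cycle genes (0.04) were above 0. Without cluster 5 the medians were -0.70 for the lectins and Fc receptors, -0.15 for the regulatory DC genes, 0.16 for the cytokines and 0.14 for the cell cycle genes. No gene of the lists for Toll-like receptors, Langerhans cells, T cells, B cells, NK cells or stromal cells reached 50 CPM, and none of the 4 granulocyte and mast cell genes was listed. The 4 Langerhans cell genes summed to 15.3 CPM in cluster 2 and 5.88 to 65.3 CPM in the other clusters.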
